A study of Mus musculus with 3 samples.

Results

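The genes described here encode nuclear subunits of the 5 enzyme complexes of oxidative phosphorylation. The group has 38 members among the 19059 genes of the deposited count tables, taken by gene symbol. All 38 symbols were in the tables. Single-cell RNA was captured with gene probes from viable cells that carried CD45, the common surface protein of leukocytes, sorted from the liver of mice at postnatal day 0. A slow spin had removed hepatocytes and a lysis step red cells, so erythroid-like cells are those that passed both and the sort. There were 3 libraries, 1 for each Pex2 genotype: homozygous normal (pex2+/+, WT), heterozygous (pex2-/+, Het) and homozygous null (pex2-/-, KO). Pex2 encodes a membrane protein with which peroxisomes import their matrix enzymes. The sources used here do not give how many animals each library holds. Each genotype has a single library, so no difference below has a replicate check and none was tested.

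Oxidative phosphorylation is the last stage of respiration, carried out in the inner mitochondrial membrane. Complex I takes electrons from NADH and complex II takes them from succinate. Complex III passes them to cytochrome c and complex IV to oxygen, while complexes I, III and IV pump protons that complex V uses to make ATP. Neutrophils are known for few mitochondria and a reliance on glycolysis, whereas dividing blood cell precursors hold many.

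Pex2 itself had 2283 UMIs (unique molecular identifiers, each marking a captured molecule) in the library labelled WT, or 23.6 CPM (counts per 1000000 UMIs). It had 7704 UMIs, 53.3 CPM, in the library labelled Het and 2 UMIs, 0.0107 CPM, in KO. The order of the first 2 goes against their labels, so they are called "labelled WT" and "labelled Het" throughout. The Y-linked gene Ddx3y had 7956 UMIs in the library labelled WT against 2 and 3 in the labelled Het and KO libraries, so sex and genotype cannot be told apart in comparisons with labelled WT. The libraries held between 8000 and 9600 barcodes and between 96629431 and 186295183 UMIs. Median depth per cell was 8218.5 UMIs in labelled WT, 15558.5 in labelled Het and 19348 in KO, so depth followed the same order as the labelled loss of alleles. No full barcode was shared by any 2 libraries.

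Cells were assigned to 12 classes by counts of marker genes, and each class is called like the cell type whose markers it met. In each class the UMIs of all its cells were summed per library and scaled to CPM of the class. Below, 3 values in a row stand for labelled WT, labelled Het and KO, in that order. A member is called higher when its KO value was at least 25% above both other libraries, and lower when it was at most 80% of both. The same rule was applied to every gene with a mean of at least 10 CPM over the 3 libraries and at least 30 UMIs, and the share of those genes that met it is given as the background. All 37 members other than Ndufs5 passed that filter in every class. Ndufs5, which was nearly absent from KO, is treated apart. Probes capture each gene with its own efficiency, so levels are compared between classes and libraries and not between genes.

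The members' level followed cell type far more than library. Together the 37 members took 1.38%, 1.43% and 1.31% of the UMIs of erythroid-like cells, the class with the highest share in every library. Granulocyte precursor-like cells, which carry the primary granule genes Elane and Mpo, had 0.953%, 0.919% and 1.04%. Mature neutrophil-like cells, marked by Cxcr2 and Csf3r, had the lowest share of the 12 classes in every library, at 0.250%, 0.255% and 0.271%. Exact binomial intervals around these shares, which cover counting error only, did not reach beyond 1.35% to 1.40% for the labelled WT erythroid-like cells, of which there were 53.

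Between these ends of the neutrophil path lay dividing granule-stage cells, which hold secondary granule genes such as Ltf and Camp, with 0.378%, 0.378% and 0.394%. Non-dividing granule-stage cells had 0.370%, 0.366% and 0.412%. B-lineage-like cells that expressed division genes had 0.898%, 0.951% and 0.844%, against 0.792%, 0.774% and 0.696% in those that did not. Dividing monocyte-like cells had 0.881%, 0.888% and 0.924%, and non-dividing ones 0.769%, 0.778% and 0.784%. In each of the 3 libraries the dividing B-lineage-like and monocyte-like cells lay above their non-dividing counterparts.

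**Figure D1:**
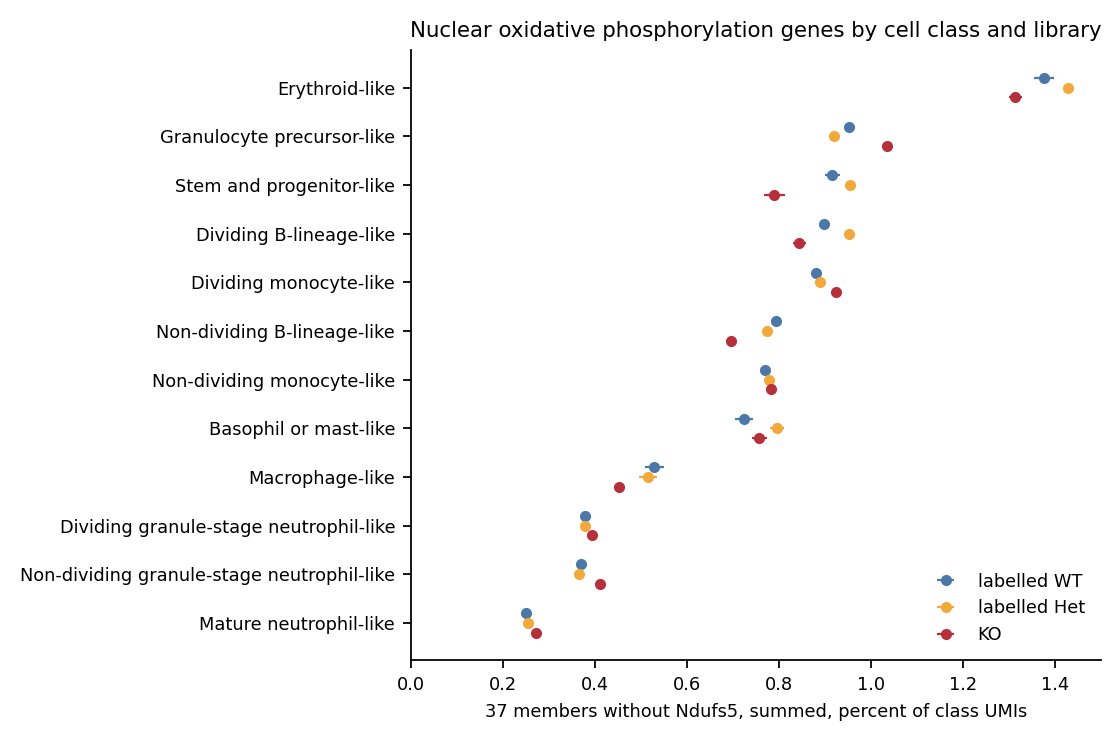
Summed share of class UMIs (percent) taken by the 37 members without Ndufs5, for each of 12 marker-gated cell classes (vertical axis) and each library (colours). Bars are exact 95% binomial intervals for counting error only. Classes span from about 0.25% in mature neutrophil-like to 1.43% in erythroid-like cells, while the libraries of one class lie close together.

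Single members followed the same order of classes. Among the 9 classes with at least 50 cells in every library, erythroid-like cells held the highest CPM of 33, 34 and 29 of the 37 members, and mature neutrophil-like cells the lowest of 35, 36 and 35. The fold between a member's highest and lowest class had a median of 5.56, 6.14 and 5.38. Ndufc2, a membrane-arm subunit of complex I, had the widest spread among members in labelled Het and KO, 12.4-fold and 14.6-fold. Ndufa8, another membrane-arm subunit, had the narrowest in labelled WT and KO, 2.40-fold and 1.94-fold. Per cell, after thinning to 3000 UMIs, the median erythroid-like cell held 41, 42.5 and 36 member UMIs and the median mature neutrophil-like cell 7 in each library.

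Over all cells together, 3 of 37 members were lower in KO and 0 were higher, where the background was 27.6% lower and 8.75% higher. The 3 were Ndufs7, Ndufa5 and Ndufc2. Ndufs7 had 166, 149.7 and 106 CPM. The members' median log2 ratio of KO was -0.04 to labelled WT and -0.13 to labelled Het, and that of all 8324 genes tested was -0.13 and -0.16. This pooled comparison depended on the scaling of the libraries. TMM factors (an alternative scaling that trims genes of large ratio) moved the median of all genes to 0.11 and 0.16. The background became 12.6% lower and 26.2% higher, and the members 0 lower and 12 higher. The cell classes also made up different parts of each library, so the comparisons below are within classes.

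As a gauge of how far the other libraries differed, labelled Het was at least 25% above or at most 80% of labelled WT for 6 of 37 members over all cells (background 26.7%). Within classes the count was 6 in granulocyte precursor-like cells (background 31.0%), 8 in dividing granule-stage (27.1%), 7 in non-dividing granule-stage (29.4%) and 7 in mature neutrophil-like cells (27.4%). It was 7 in dividing monocyte-like (34.8%) and 9 in non-dividing monocyte-like cells (38.7%), 7 in dividing (28.2%) and 7 in non-dividing B-lineage-like cells (30.2%), and 10 in erythroid-like cells (42.4%). In each of these 9 classes the members' share lay below the background, as a description of these libraries. The background was not matched to the members' levels, here or below. It includes genes from a mean of 10 CPM, whose ratios carry more counting error, so the lower share is not read as a trait of the members.

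Granulocyte precursor-like cells had the most members called higher in KO among the 9 classes. There 11 of 37 members were higher (background 18.2%) and 1 was lower (background 22.4%). The median log2 ratio of KO over its members was 0.13 to labelled WT and 0.19 to labelled Het, beside -0.04 and -0.02 for all 8582 genes tested. Among the 37 members, 25 had a KO value above both other libraries at any distance. The share of all genes that did so in this class was not counted, so that number has no background.

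The member furthest above both libraries in this class was Atp5o, which encodes the stalk subunit that joins the 2 parts of ATP synthase. Its level was 207, 253 and 392 CPM, 1.90-fold above labelled WT (interval 1.77 to 2.03) and 1.55-fold above labelled Het (1.47 to 1.63). Ndufa10, a membrane-arm subunit of complex I on the matrix side, followed at 202, 221 and 317 CPM. Atp5c1, the rotating gamma subunit of ATP synthase, had 44.4, 46.1 and 66.1 CPM. In all 3 of these members the libraries labelled WT and labelled Het lay nearer to each other than either did to KO.

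The other members called higher in precursors were Ndufv2, Ndufs4 and Ndufs6 of the NADH-oxidising module, Ndufs3 and Ndufa9 of the quinone-reducing module, Ndufb10 of the membrane arm, and Uqcrc2 and Uqcrfs1 of complex III. Ndufs7, an iron-sulfur subunit of the quinone-reducing module, was the 1 member called lower, at 306, 249.9 and 194 CPM. Ndufa2 was also below both, at 411, 375 and 354 CPM, and so was Sdhd at 487, 409 and 395 CPM, but neither met the rule for lower. Summed over its members, complex V had 1536, 1524 and 1737 CPM and complex III 1449, 1598 and 1784 CPM, while complex II had 1453, 1301 and 1367 CPM.

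Precursor-like cells of KO also differed in their markers. Their 5 precursor markers summed to 78032, 71467 and 41201 CPM with none at 0, and the division marker Mki67 had 176, 267 and 627 CPM. The 5 monocyte markers probed summed to 868, 782 and 1909 CPM, also with none at 0. The part of these shifts in the members' difference was not tested.

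In the other neutrophil classes fewer members met the rule. When all cells were clustered by the Leiden method, the cluster with the most cells of each of these classes differed between libraries. Cluster 1 held 63.1%, 58.1% and 0.692% of dividing granule-stage cells, and cluster 13, the largest in KO, held 0%, 0.330% and 34.8%. In the non-dividing granule-stage class the largest cluster was 0 in labelled WT, 5 in labelled Het and 8 in KO. In the mature class it was cluster 0 in labelled WT, 5 in labelled Het and 3 in KO, and cluster 3 held 0%, 0.836% and 55.3%. The 5 monocyte markers summed to 32.9, 54.5 and 221 CPM in dividing granule-stage cells, 75.1, 61.4 and 275 CPM in non-dividing ones and 37.5, 45.9 and 259 CPM in mature ones, with none at 0. The part of the clusters and of these markers in the members' values was not tested.

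Dividing granule-stage neutrophil-like cells had 4 members higher (background 10.8%) and 1 lower (17.8%). With TMM factors the counts were 8 higher (18.2%) and 0 lower (11.4%). Furthest above both libraries was Ndufa10, with 56.7, 68.8 and 95.6 CPM. Atp5o followed with 74.5, 95.4 and 126 CPM. Uqcrfs1, the Rieske iron-sulfur protein of complex III, had 92.3, 139 and 181 CPM. All 3 had labelled Het between the other libraries. On the low side Ndufs7 met the rule at 123, 95.7 and 76.5 CPM. Ndufc2, at 113, 85.8 and 72.2 CPM, and Uqcrq, a small complex III subunit, at 43.5, 45.0 and 37.1 CPM, were below both without meeting it.

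Non-dividing granule-stage cells had 7 members higher (background 14.3%) and 0 lower (17.2%). With TMM factors 9 were higher (18.8%) and 0 lower (13.7%). The members' medians were 0.13 and 0.16 beside -0.03 and -0.02 for all genes tested. Atp5o was again the furthest above, at 75.7, 85.7 and 132 CPM. Ndufa10 had 55.9, 70.4 and 104 CPM. Ndufv2, an iron-sulfur subunit that takes part in NADH oxidation, had 78.8, 93.5 and 131 CPM. The low side held no member that met the rule: Uqcrq had 42.7, 43.5 and 35.8 CPM. Ndufs7 had 108, 83.1 and 70.5 CPM, and its quinone-module neighbour Ndufa5 had 28.6, 26.2 and 22.9 CPM. In this class the division marker Mki67 had 163, 219.5 and 448 CPM and the granule gene Camp 38065, 29194 and 21889 CPM, and their part was not tested.

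Mature neutrophil-like cells had 5 members higher (background 17.5%) and 1 lower (14.6%). Their medians were 0.03 and 0.07 beside 0.02 and 0.04 for all genes. Uqcrfs1 was furthest above, with 62.6, 88.3 and 127 CPM. KO was 2.03-fold above labelled WT (interval 1.91 to 2.15) and 1.43-fold above labelled Het (1.36 to 1.51). Atp5o had 40.7, 52.1 and 72.0 CPM, and Ndufa10 had 36.2, 44.0 and 56.2 CPM. Ndufc2 was the member called lower, at 42.4, 38.1 and 27.8 CPM. Ndufv1, which holds the site where NADH is oxidised, had 38.3, 38.3 and 31.3 CPM and did not meet the rule. Uqcrq, at 32.4, 29.1 and 23.9 CPM, did not meet it either.

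Monocyte-like cells had several of the same members on the high side. Dividing monocyte-like cells had 8 members higher (background 13.4%) and 1 lower (21.7%), and with TMM factors 9 higher (17.9%) and 0 lower (17.4%). Non-dividing monocyte-like cells had 4 higher (background 16.5%) and 1 lower (24.0%). The members' median ratios in these 2 classes lay between -0.00 and 0.04, beside -0.09 to -0.05 for all genes tested.

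In dividing monocyte-like cells Ndufa10 was furthest above both, at 169, 209.5 and 299.5 CPM. Ndufs3, a core subunit of the quinone-reducing module, had 103, 102 and 146 CPM. Ndufv2 had 160, 221 and 308 CPM, so KO was 1.92-fold above labelled WT (interval 1.74 to 2.12). For Ndufs3 the libraries labelled WT and labelled Het lay close together, while for the other 2 labelled Het lay between. Ndufs7 was the member called lower, at 260.1, 215 and 169 CPM. Ndufa5 had 91.0, 85.8 and 73.6 CPM and Uqcrq 119, 142 and 105 CPM, neither of which met the rule.

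In non-dividing monocyte-like cells Uqcrc2, a core protein of complex III, was furthest above both, at 109, 158 and 225 CPM. Ndufs3 followed with 105, 104 and 139 CPM and Ndufa10 with 158, 204 and 269.5 CPM. Uqcrq was the member called lower, at 108, 128 and 83.7 CPM. Ndufa2, of the NADH-oxidising module, had 337, 326 and 267 CPM, just short of the rule for lower. Ndufs1, the largest iron-sulfur subunit of complex I, had 67.9, 66.0 and 55.2 CPM. The 5 granule-stage neutrophil markers summed to 1571, 1284 and 3609 CPM in this class and to 1362, 1156 and 3014 CPM in the dividing one, with none at 0. Cluster 19 held 0.410%, 2.08% and 87.7% of the non-dividing cells, and cluster 9 held 90.1%, 72.5% and 0% of the dividing cells. The part of these markers and clusters in the members' values was not tested. Cells at the lowest passing marker count made up 22.1%, 29.8% and 38.3% of this class and 23.6%, 20.4% and 41.2% of the dividing one.

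**Figure D2:**
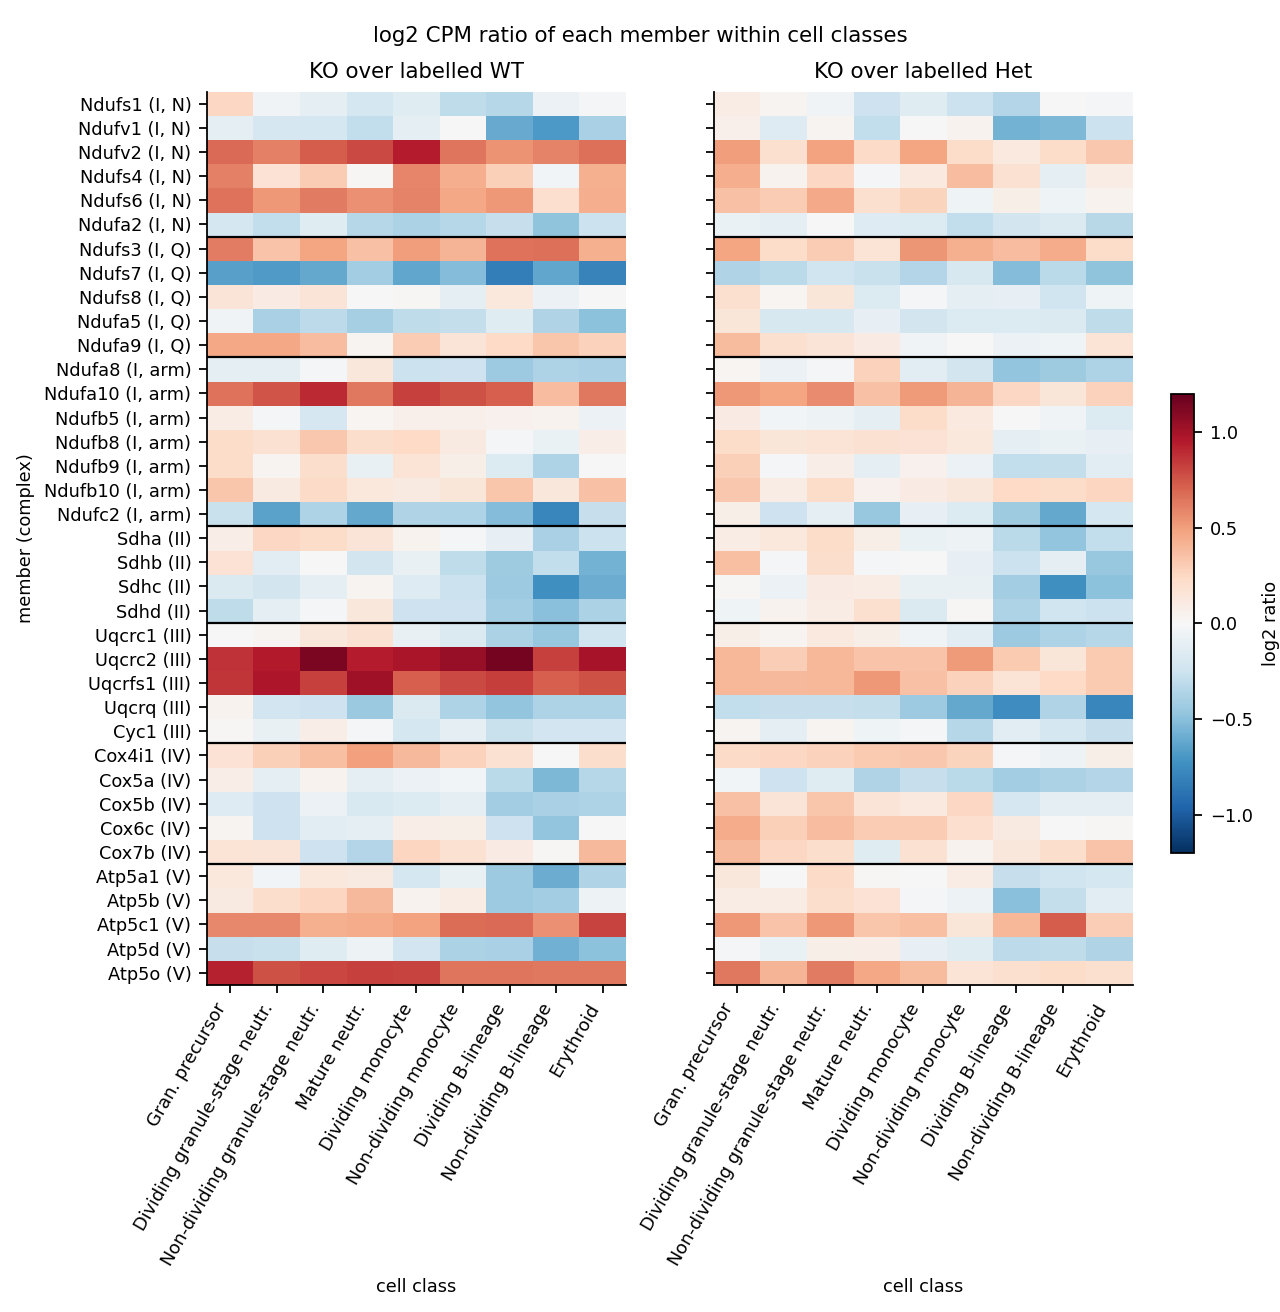
Each row is 1 of the 37 members, grouped by complex (I with its N module, Q module and membrane arm, then II to V), and each column 1 of 9 cell classes. Colour is the log2 CPM ratio of KO over labelled WT (left) or labelled Het (right), with 0 in white. Rows such as Uqcrc2 and Uqcrfs1 are red in every class and Ndufs7 blue in every class, while complex II is bluest in the B-lineage and erythroid columns.

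B-lineage-like cells had more members called lower than higher in both classes. In dividing B-lineage-like cells 10 of 37 members were lower in KO (background 17.0%) and 2 higher (17.9%). The median over members was -0.16 against labelled WT and -0.17 with labelled Het, while that of all 8445 genes tested was 0.03 and 0.01. TMM factors gave 11 lower (background 16.6%) and 3 higher (18.4%) in this class. Non-dividing B-lineage-like cells had 9 lower (background 24.5%) and 2 higher (14.1%), with medians of -0.29 and -0.11 beside -0.08 and -0.08. The share of members lower in the non-dividing class was thus near its background. With TMM factors 3 were lower (19.2%) and 5 higher (20.3%) there.

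In dividing B-lineage-like cells, Ndufv1 was the member furthest below both libraries, with 233, 227 and 153 CPM. Its KO level was 0.658 times labelled WT (interval 0.572 to 0.754) and 0.673 times labelled Het (0.587 to 0.769). Ndufs7 had 261, 210.3 and 146 CPM. Uqcrq had 120.0, 145 and 85.9 CPM. Labelled WT and labelled Het were nearly level for Ndufv1, whereas labelled Het lay 1.21-fold above labelled WT for Uqcrq.

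The other members called lower there were Ndufs1, Ndufa8, Ndufc2, Sdhc, Sdhd, Uqcrc1 and Atp5b. Uqcrc1, the other core protein of complex III, had 563, 585 and 433 CPM. Atp5b, the catalytic beta subunit of ATP synthase, had 503, 527 and 372 CPM. Above both libraries was Atp5c1 at 27.7, 33.7 and 44.2 CPM, a KO value that rested on 71 UMIs. Its ratio to labelled Het of 1.31 had an interval of 0.998 to 1.71, which includes 1. Ndufs3 met the rule for higher at 108, 132 and 171 CPM. Uqcrc2, at 121, 216 and 268 CPM, was above both without meeting it.

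In non-dividing B-lineage-like cells the furthest below was Sdhc, 1 of the 2 membrane anchors of complex II, at 304, 303 and 182 CPM. KO was 0.601 times labelled WT (interval 0.544 to 0.664) and 0.601 times labelled Het (0.547 to 0.660). Ndufc2 had 239, 213 and 139 CPM, and Ndufv1 had 178, 161 and 111 CPM. On the high side Atp5c1 had 32.0, 28.3 and 47.0 CPM. Ndufs3 had 106, 124 and 168 CPM. Uqcrfs1, at 244, 339.8 and 400.5 CPM, did not meet the rule. Called lower in both B-lineage classes were 7 members: Ndufv1, Ndufs7, Ndufa8, Ndufc2, Sdhc, Uqcrc1 and Uqcrq. The share of all genes called lower in both was not counted, so that number has no background. With TMM or median-of-ratios factors 3 members were lower in the non-dividing class, so at most 3 of the 7 were then lower in both.

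The B-lineage classes differed between libraries in stage and make-up. There were 654, 541 and 120 dividing and 592, 618 and 633 non-dividing B-lineage-like cells. The early B-cell gene Igll1 had 1027, 1024 and 94.7 CPM in the non-dividing class, and Ms4a1, a later B-cell gene, had 256, 390.4 and 491 CPM. The 5 granule-stage neutrophil markers summed to 2368, 1101 and 705 CPM in dividing B-lineage-like cells, with none at 0, and the 6 natural killer or innate lymphoid markers to 3.1, 26.9 and 360.5 CPM. When the non-dividing class was kept to cells with a UMI of Ms4a1 or Ighd, a choice made after seeing the data, the members' share was 0.727%, 0.736% and 0.680% in 313, 382 and 426 cells. KO had the lowest share of the 3 in that subset. All genes tested there had median log2 ratios of KO of -0.05 to labelled WT and -0.05 to labelled Het. Of those genes 19.8% were lower and 13.3% higher. Other scalings were not applied to this subset, and the part of stage and of the other markers was not tested.

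The KO ratios of members were lower in dividing B-lineage-like than in precursor-like cells. Among the classes with at least 50 cells in every library, the former had the most members called lower in KO and the latter the most called higher. The direction of the difference was thus set by the pick of this pair, and the counts do not test it. The log2 ratio of KO to labelled Het was lower in dividing B-lineage-like cells than in precursor-like cells for 37 of 37 members, with a median difference of -0.32. Over the 7782 genes tested in both classes, 47.7% were lower in the B-lineage class and the median difference was 0.03. For KO over labelled WT, 31 of 37 members were lower in the B-lineage class, beside 44.1% of all genes. The median difference was -0.23 beside 0.07 for all genes. With TMM factors the counts were 37 and 34 of 37, beside 49.6% and 49.7% of all genes. For labelled Het over labelled WT, 7 of 37 members were lower in the B-lineage class, beside 43.1% of all genes. The median difference was 0.16 beside 0.04 for all genes. The part of the labelled Het library in the difference was not tested. Other pairs set either B-lineage class against a neutrophil-path or monocyte-like class. Their counts ran from 28 to 35 of 37 for KO over labelled Het and from 24 to 35 for KO over labelled WT. The share of all genes lower in the B-lineage class ran from 40.6% to 57.4% and from 38.6% to 50.6%. Dividing B-lineage-like and precursor-like cells each had the same largest Leiden cluster in the 3 libraries, but that cluster held a smaller part of the class in KO. Cluster 6 held 78.75%, 79.85% and 67.5% of the dividing B-lineage-like cells. Cluster 12 held 64.9%, 68.4% and 45.1% of the precursor-like cells. Both classes come from the same 3 libraries and members are not replicates, so the counts describe these libraries.

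Erythroid-like cells, of which there were 53, 154 and 94, had 7 members lower (background 19.6%) and 2 higher (17.5%), with medians of -0.06 and -0.13 beside -0.02 and -0.00 for all genes. With TMM or median-of-ratios factors 6 were lower and 4 higher. The background was then 18.6% lower and 18.6% higher with TMM, and 18.2% and 19.1% with median-of-ratios factors. Sdhc was furthest below both, with 635, 591 and 419.6 CPM. Ndufs7 had 587, 468 and 336 CPM. Sdhb, the iron-sulfur subunit of complex II, had 387, 358 and 262 CPM. The other 4 called lower were Ndufa8, Uqcrq, Cox5a and Atp5d. Above both was Cox7b, a small subunit of complex IV, at 322, 333 and 422 CPM. Ndufv2 also met the rule for higher, at 294, 370.5 and 464 CPM. Uqcrfs1, at 348, 476 and 593 CPM, did not. The 7 erythroid markers summed to 3189, 4490 and 6395 CPM and the granule-stage neutrophil markers to 2776, 933 and 389 CPM, with 1 of the latter at 0 in KO, and their part was not tested.

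The 3 smaller classes fell below 50 cells in at least 1 library. Macrophage-like cells (50, 39 and 87) had 7 members lower (background 16.7%) and 1 higher (24.0%). Stem and progenitor-like cells (97, 124 and 34) had 12 lower (20.8%) and 1 higher (22.0%), and basophil or mast-like cells (55, 58 and 49) had 5 lower (15.7%) and 4 higher (19.7%). Summed shares were 0.529%, 0.515% and 0.453% in macrophage-like and 0.916%, 0.955% and 0.789% in stem and progenitor-like cells, so KO was the lowest of the 3 in both.

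**Figure D3:**
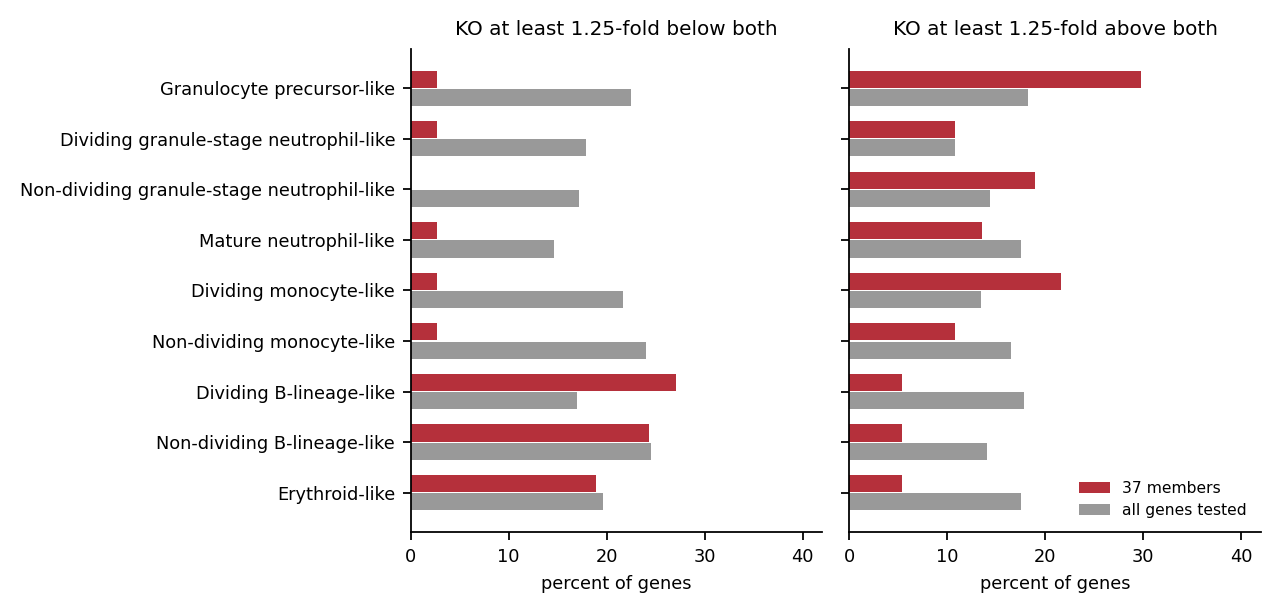
Percent of genes (horizontal axes) whose KO level lay at most 80% of both other libraries (left) or at least 25% above both (right), in each of 9 classes. Red bars are the 37 members and grey bars all genes tested in that class. Members exceed the grey bar on the low side in dividing B-lineage-like cells and on the high side in granulocyte precursor-like, non-dividing granule-stage and dividing monocyte-like cells.

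By complex, the succinate-oxidising complex II, which also serves the citric acid cycle, had the lowest summed KO level relative to labelled WT of the 5 complexes in both B-lineage classes and in erythroid-like cells. Its 4 subunits Sdha, Sdhb, Sdhc and Sdhd summed to 1282, 1286 and 1010 CPM in dividing B-lineage-like cells. The sums were 1149, 1084 and 827 CPM in non-dividing B-lineage-like cells and 2213, 2105 and 1635 CPM in erythroid-like cells. In each of these 3 classes 2 of the 4 subunits were called lower and 0 higher, where the share of all genes called lower was 17.0%, 24.5% and 19.6%. With TMM or median-of-ratios factors 1 of the 4 was called lower in non-dividing B-lineage-like cells (background 19.2% and 18.6%). Relative to labelled WT, complex II also had the lowest KO sum of the 5 in precursor-like, both monocyte-like and non-dividing granule-stage cells. There 0 of its 4 subunits were called. Its sums were 1453, 1301 and 1367 CPM in precursor-like cells. They were 1366, 1335 and 1261 CPM in dividing and 1306, 1164 and 1120 CPM in non-dividing monocyte-like cells. In non-dividing granule-stage cells they were 513, 469 and 520 CPM, so KO was above both other libraries. Complex IV had 542, 481 and 552 CPM in that class, so the ratios of KO to labelled WT lay close together. In mature neutrophil-like cells the same sums were 384, 366 and 391 CPM, with 0 of 4 called.

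Sdha, the flavoprotein that oxidises succinate, was 0.766 times labelled WT (interval 0.694 to 0.845) and 0.719 times labelled Het (0.657 to 0.787) in non-dividing B-lineage-like cells. Its levels there were 276, 294 and 211 CPM. Sdhd, the other membrane anchor, had 229.7, 221 and 199 CPM over all cells and 319.6, 309 and 239 CPM in dividing B-lineage-like cells. The median log2 ratio of complex II stayed below 0 in both B-lineage classes and in erythroid-like cells with TMM and with median-of-ratios factors, between -0.45 and -0.23.

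Members of complex III lay on both sides. Uqcrc2 and Uqcrfs1 were above both libraries in all 9 classes, while Uqcrq was below both in 8 of 9 and called lower in 4. With TMM or median-of-ratios factors Uqcrq stayed below both in 8 but was called lower in 2. Over all complexes, 8 of 37 members (21.6%) were above both in all 9 classes, beside 12.7% of the 5239 genes tested in each. Below both in all 9 were 2 members (5.41%), beside 9.77% of those genes. Cyc1, which encodes cytochrome c1, was below both in 7 of 9 classes and called in 0. Uqcrc1 had 359.9, 396 and 349.6 CPM over all cells, so labelled Het was the highest of the 3. It was called lower in the 2 B-lineage classes, but in 1 class with TMM or median-of-ratios factors, and had 680.1, 650.0 and 683 CPM in precursor-like cells.

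Complex I had members on both sides within each of its 3 modules. Of the NADH-oxidising module, Ndufv2 was above both libraries in 9 of 9 classes and Ndufa2 below both in 9 of 9, although Ndufa2 was called in 0 and with TMM factors was below both in 7. Of the quinone-reducing module, Ndufs3 was above both in 9 classes and called in 5, and Ndufs7 was below both in 9 and called lower in 6. Ndufs7 remained below both in 9 classes with the other scalings, but was called lower in 3 with TMM and in 2 with median-of-ratios factors. Ndufs8, which carries iron-sulfur clusters, was called in 0 classes, and its log2 ratios against labelled WT spanned -0.12 to 0.16. Of the membrane arm, Ndufa10 and Ndufb10 were above both in 9 classes, Ndufc2 was below both in 8, and Ndufb5, Ndufb8 and Ndufb9 were called in 0. Ndufb8 had 243, 268 and 273 CPM over all cells.

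Complex IV had few calls. Cox4i1 and Cox7b were above both libraries in 7 of 9 classes and Cox5a below both in 7, although with TMM or median-of-ratios factors Cox5a was below both in 4. Among the 5 complex IV members, Cox5b and Cox6c were lower in labelled Het than in labelled WT in all 9 classes, with median log2 ratios of -0.34 and -0.41, and neither was called in KO. Cox5b had 262, 221 and 221 CPM over all cells and 453, 319.6 and 408 CPM in precursor-like cells. Cox5a was called lower in 2 classes and Cox4i1, the regulatory subunit of complex IV, was called higher in 1. With TMM or median-of-ratios factors Cox4i1 was called higher in 5, and Cox5a was called lower in 1 with TMM and 0 with median-of-ratios factors. Of complex V, Atp5c1 was called higher in 7 classes and Atp5o in 5, whereas Atp5a1 was called in 0, Atp5b lower in 1 and Atp5d, the small delta subunit, lower in 1. Over all cells Atp5b had 295, 342 and 307 CPM, with labelled Het the highest.

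Some members kept 1 order of the 3 libraries in all 9 classes. Uqcrc2, Uqcrfs1, Ndufv2, Ndufa10 and Atp5o had labelled WT below labelled Het and labelled Het below KO in each class, which is 5 of 37 members or 13.5%. Among the 5239 genes tested in all 9 classes, 5.92% had that order. Ndufs7 had the opposite order in 9 of 9, which is 2.70% of members beside 4.47% of genes. Both orders held with TMM and with median-of-ratios factors for these 6 members in 9 of 9 classes. The classes share their libraries, and median depth per cell had the same order as the first 5, so depth, genotype and library cannot be told apart.

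For Uqcrc2 the median log2 ratio over the 9 classes was 0.66 for labelled Het over labelled WT and 0.98 for KO over labelled WT. In dividing B-lineage-like cells KO was 2.22-fold above labelled WT (interval 1.96 to 2.50) and 1.24-fold above labelled Het (1.11 to 1.38). The step from labelled WT to labelled Het, 1.79-fold, was thus the larger of the 2. For Ndufs7 in the same class KO was 0.562 times labelled WT (interval 0.488 to 0.644) and 0.696 times labelled Het (0.604 to 0.797).

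**Figure D4:**
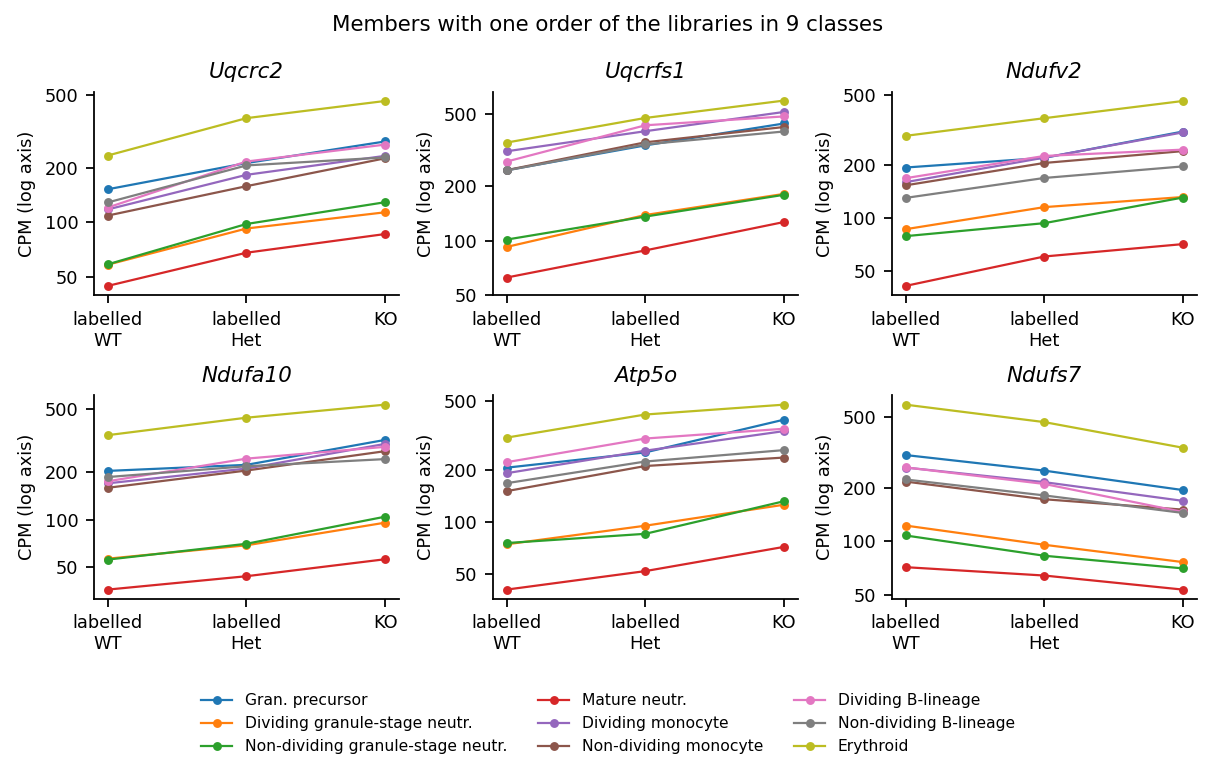
CPM of 6 members (log axis) in the libraries labelled WT, labelled Het and KO, with 1 line per cell class. In the first 5 panels each of the 9 lines runs upward from left to right, and for Ndufs7 each runs downward.

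For these members the RefSeq promoter table of GRCm38.p6 was searched, since the 6 kept their order across classes. It matched 28 of the 38 members, with a window of 250 bases before to 50 after the start. Windows are printed for Ndufs5, nearly absent from KO, for Uqcrfs1 and Atp5o, which were highest in KO in all 9 classes, and for Ndufs7, which was lowest there. Capitals mark the motif of NRF1, a factor of nuclear respiratory genes (GCGCA, any base, then GCGC), or of YY1 (ATGGCGGC), searched on both strands.
Ndufs5, chr4:123718137-123718436, minus strand: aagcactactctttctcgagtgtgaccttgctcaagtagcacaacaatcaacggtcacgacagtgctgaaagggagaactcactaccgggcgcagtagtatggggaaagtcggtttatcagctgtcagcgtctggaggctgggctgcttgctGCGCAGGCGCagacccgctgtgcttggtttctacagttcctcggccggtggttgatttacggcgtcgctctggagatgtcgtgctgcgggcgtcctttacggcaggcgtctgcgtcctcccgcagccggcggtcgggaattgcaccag
Uqcrfs1, chr13:30545267-30545566, minus strand: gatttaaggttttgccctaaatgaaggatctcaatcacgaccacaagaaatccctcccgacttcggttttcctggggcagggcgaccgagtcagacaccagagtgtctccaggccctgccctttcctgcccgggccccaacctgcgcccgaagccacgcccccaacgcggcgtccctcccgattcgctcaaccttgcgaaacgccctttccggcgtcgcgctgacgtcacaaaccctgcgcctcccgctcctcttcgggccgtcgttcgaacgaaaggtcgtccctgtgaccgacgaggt
Atp5o, chr16:91931581-91931880, minus strand: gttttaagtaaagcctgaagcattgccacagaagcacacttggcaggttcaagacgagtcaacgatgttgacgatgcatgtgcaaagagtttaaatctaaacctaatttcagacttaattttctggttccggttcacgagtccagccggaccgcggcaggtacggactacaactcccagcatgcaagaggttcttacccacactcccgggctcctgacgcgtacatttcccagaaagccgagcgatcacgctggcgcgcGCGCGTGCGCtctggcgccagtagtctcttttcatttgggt
Ndufs7, chr10:80249199-80249498, plus strand: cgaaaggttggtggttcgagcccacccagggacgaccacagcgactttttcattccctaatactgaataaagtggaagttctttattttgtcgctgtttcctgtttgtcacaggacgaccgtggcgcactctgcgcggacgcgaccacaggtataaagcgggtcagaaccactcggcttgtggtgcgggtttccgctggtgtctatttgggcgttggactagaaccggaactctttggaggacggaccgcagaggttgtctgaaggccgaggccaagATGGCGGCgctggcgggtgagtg

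The NRF1 letters were in 8 of the 28 windows (28.6%), those of Atp5o, Ndufa5, Ndufa8, Ndufs5, Ndufs6, Sdha, Sdhd and Uqcrc1, beside 4.78% of all 27025 promoter windows. YY1 letters were in 5 (17.9%, beside 2.38%), those of Ndufa9, Ndufb5, Ndufs4, Ndufs6 and Ndufs7. The ETS letters CCGGAAG were in 4 (14.3%, beside 9.12%), those of Ndufs3, Ndufs8, Sdhb and Sdhd. The motifs were counted separately, so a window can hold more than 1, as those of Ndufs6 and Sdhd do. Windows with the NRF1 letters belonged to members on both sides: Atp5o was above both libraries in 9 of 9 classes and Ndufa5 below both in 8 of 9. The window of Uqcrfs1 held none of the 3 motifs.

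Ndufs5 encodes an accessory subunit of the complex I membrane arm that faces the intermembrane space, and lies on chromosome 4 at 123712710 to 123718202, minus strand (GRCm38, ENSMUSG00000028648). Over all cells it had 4697, 7253 and 367 UMIs, or 51.9, 52.3 and 2.10 CPM. KO was 24.7-fold below labelled WT (interval 22.2 to 27.5) and 24.9-fold below labelled Het (22.4 to 27.7). The libraries labelled WT and labelled Het differed by less than their counting intervals, 50.5 to 53.5 and 51.1 to 53.5 CPM.

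The low level was present in every class. Ndufs5 had its highest level of the labelled WT and labelled Het libraries in dividing B-lineage-like cells, 117 and 126 CPM, where KO had 2.49 CPM from 4 UMIs. Mature neutrophil-like cells had 32.0, 29.3 and 1.27 CPM and erythroid-like cells 81.3, 81.6 and 2.10 CPM. In granulocyte precursor-like cells KO had 5.95 CPM from 50 UMIs, the highest KO value of the 12 classes, which was 9.44% of labelled WT and 8.16% of labelled Het. Its interval, 4.42 to 7.85 CPM, lay above that of dividing granule-stage cells, 1.37 to 1.99 CPM.

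In 2 small classes no Ndufs5 UMI was found in KO. With the count of 0 taken as 3, a floor for counting error only that leaves the error of the other 2 counts aside, labelled WT was at least 12.4-fold and labelled Het at least 10.1-fold higher in macrophage-like cells, and at least 14.5-fold and 12.7-fold higher in stem and progenitor-like cells. By cell, 36.6%, 51.2% and 4.56% held at least 1 UMI. After thinning every cell to 3000 UMIs the shares were 13.6%, 13.9% and 0.577%, and the highest count in any 1 full cell was 9, 13 and 3.

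**Figure D5:**
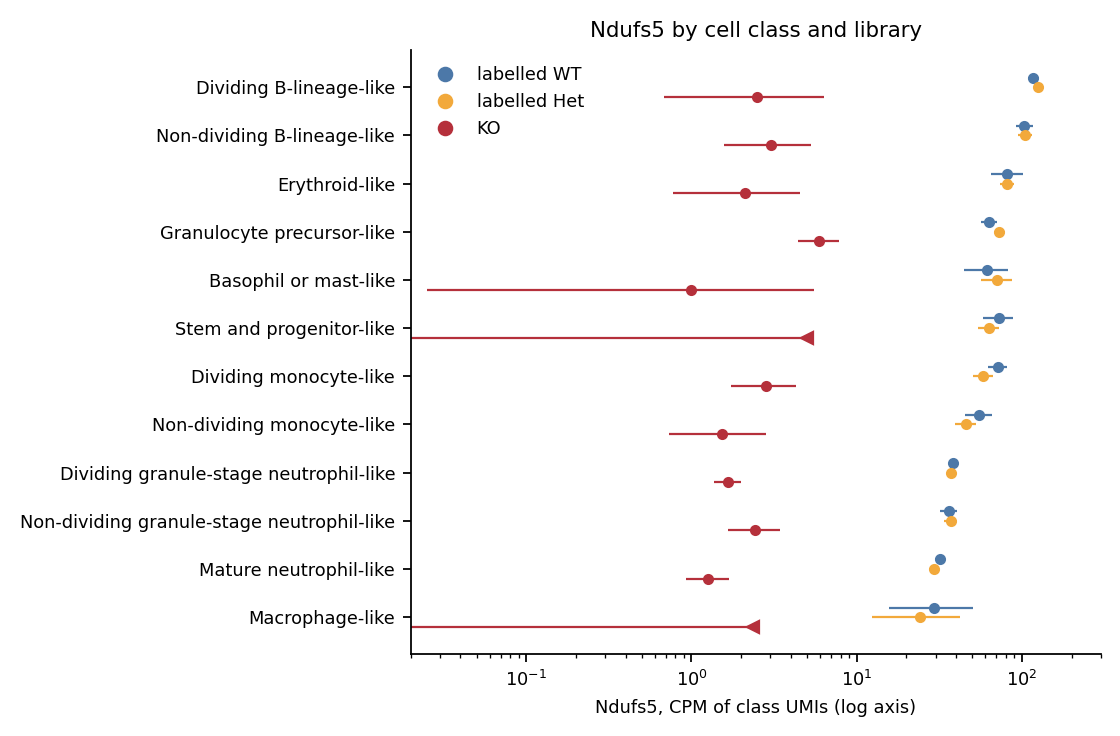
Ndufs5 level (CPM of class UMIs, log axis) in each of 12 cell classes and 3 libraries, with exact 95% Poisson intervals for counting error. Arrowheads mark the level that 3 counts would give where KO had 0 UMIs. KO lies at 0 to 5.95 CPM and the other libraries at 24.0 to 126 CPM in every class.

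A difference of this size was rare in the pooled cells. Of 8324 genes tested, 5 (0.0601%) were at least 20-fold below both other libraries in KO: Pex2, Ndufs5, St8sia1, Vpreb1 and Gstp3. None of the other 37 members was 2-fold below both, beside 4.73% of all genes tested. Genes next to Ndufs5 on chromosome 4 were present in KO. Of the 10 nearest genes tested, 5 on each side, 6 had a KO level below both other libraries and 4 above both. Macf1, on 1 side, had 75.8, 90.5 and 123 CPM, and Akirin1, on the other, had 39.5, 60.5 and 91.8 CPM, so both were higher in KO than in the other libraries. Ppie, further along, had 54.2, 50.8 and 25.2 CPM.

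Subunits of the complexes outside the 38 members also lay on both sides. Over the 9 classes, 45 of their 314 values were lower in KO and 33 higher, beside 20.1% and 15.7% of all genes' values. The tissue isoforms of complex IV are not in this count and had 5 of 12 values lower and 0 higher. Over all cells the background for each list below was 27.6% lower and 8.75% higher, and with TMM factors 12.6% and 26.2%. The lists were not recounted over all cells with TMM factors. Of the 18 other complex I subunits, 2 were lower and 0 higher over all cells, Ndufb6 at 160.3, 119 and 86.9 CPM and Ndufab1 at 44.5, 52.4 and 33.9 CPM. In dividing B-lineage-like cells 5 of the 18 were lower (background 17.0%) and 1, Ndufa6, was higher (17.9%) at 231, 307 and 432 CPM. Cox6b1 of complex IV had 202, 148 and 122 CPM over all cells and Cox6a1 170.3, 145 and 122 CPM, within a list of 6 of which 0 were called. In dividing B-lineage-like cells Cox6b1 had 374, 278 and 199 CPM and Atp5e, the epsilon subunit of ATP synthase, 306, 272 and 173 CPM. Of the 8 other complex V genes 2 were lower over all cells, Atp5e at 167, 146 and 88.2 CPM and Atpif1, an inhibitor of ATP synthase, at 121, 140.2 and 80.3 CPM. Of the 3 other complex III genes tested 0 were called, with Uqcr11 at 108, 103 and 82.7 CPM. Cytochrome c (Cycs) did not pass the filter on low values.

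Factors that assemble the complexes and carry proteins into mitochondria had more values lower in KO. Of the assembly factors, 22 of 43 tested were lower (background 27.6%) and 1 higher (8.75%) in the pooled cells. The list's median ratios were -0.42 and -0.42. Ndufaf2, which helps build complex I, had 25.6, 22.6 and 9.61 CPM and Uqcc1, which helps build complex III, 22.6, 21.4 and 10.7 CPM. Of the import machinery 13 of 24 were lower and 0 higher, with Timm10 at 33.5, 32.2 and 14.6 CPM and Tomm40, the outer membrane channel, at 95.7, 96.6 and 47.9 CPM. Over the 9 classes, 30.3% of assembly factor values and 30.5% of import values were lower, beside 9.31% of the members' values and 20.1% of all genes' values. With TMM factors these shares were 25.4%, 26.6%, 6.61% and 17.1%.

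Among 11 regulators of mitochondrial genes tested over all cells, 4 were lower in KO (background 27.6%) and 0 higher (8.75%). Pprc1, a coactivator of NRF1, had 33.9, 39.2 and 12.2 CPM, and the nuclear receptor gene Esrra 85.7, 66.1 and 49.4 CPM. In granulocyte precursor-like cells Pprc1 had 103, 92.1 and 34.9 CPM. Over the 9 classes, 18.2% of regulator values were lower and 7.27% higher, beside 20.1% and 15.7% of all genes' values. In dividing B-lineage-like cells 0 of 14 regulators tested were lower (background 17.0%) and 3 higher (17.9%). None of the 15 citric acid cycle genes was called over all cells in either direction, with median ratios of 0.22 and -0.02. Dlst, of the oxoglutarate dehydrogenase complex, had 137, 159 and 178 CPM, and Dld, shared by that and the pyruvate complex, 72.0, 99.5 and 111 CPM. Of 7 carriers, 2 were higher in KO over all cells, the ATP and ADP carrier Slc25a5 at 31.1, 61.7 and 111 CPM and the outer membrane channel Vdac2 at 65.2, 98.2 and 143 CPM.

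Of the subunits encoded by the mitochondrial genome itself, 10 of 13 were higher in KO over all cells (background 8.75%) and 1 was lower (27.6%). Their median log2 ratio was 1.11 to labelled WT and 0.72 to labelled Het. The complex I gene mt-Nd1 had 56.3, 107 and 273 CPM and the ATP synthase gene mt-Atp6 had 144, 194 and 490.0 CPM, while mt-Nd6 had 141, 68.1 and 36.0 CPM. Their median followed the order of depth over the 3 libraries, and the part of depth was not tested.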

How the data were processed

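Per the submitters' processing notes, the authors made the deposited UMI counts with Cell Ranger 7.0.0 against mm10, and the sources used here give no other setting. Counts of 19059 genes were used as deposited. Doublets were called with Scrublet (scanpy 1.11.5), which marked 273, 186 and 298 barcodes in labelled WT, labelled Het and KO, and cells under 3000 UMIs (770, 297 and 333) were left out, leaving 8561, 7524 and 7624.

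Each cell was thinned to 3000 UMIs and gated on the number of markers detected: 3 for B-lineage, monocyte, precursor, stem and basophil or mast cells, 4 for macrophages and mature neutrophils, 2 for erythroid and for dividing cells. Granule-stage cells needed at least 100 granule UMIs, and B-lineage, monocyte, macrophage, stem, erythroid and basophil or mast cells fewer than 40. These classes are rebuilt from markers and are not the authors' annotation. Cells that met no class or more than 1 were left out, and about 92% were classed in each library (91.9%, 91.7% and 92.1%). Cells with the lowest passing count made up 31.8% to 41.6% of mature neutrophil-like and 20.4% to 41.2% of monocyte-like cells. Full counts were summed per class. Log2 ratios had 0.5 counts added to each sum, ratios carry exact conditional binomial intervals and levels exact Poisson intervals at 95%, which cover counting error. Each genotype has a single library, so nothing was tested.

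Members and lists were chosen with earlier results of these data known. Named are Ndufs5, the 3 members furthest beyond both libraries in each direction in each class with 50 cells per library, the member with the highest CPM of each complex and the leading genes of the other lists. Other members named in the text were chosen after their values were seen. The list of mitochondrial ribosome genes was not analysed here. Some nuclear subunits have near-identical pseudogenes, and probe sequences were not used here, so shared probes are possible. Alternatives were TMM factors (edgeR 4.0.16), median-of-ratios factors (DESeq2 1.42.0), other filters and folds, other gates, Leiden clusters, thinned counts, means over cells and doublets kept. Neither edgeR nor DESeq2 was used for a test. The procedure was tested on simulated libraries drawn from a single shared profile with counting error only. That simulation does not cover differences between libraries in sex, cell make-up or handling.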

Additional observations from a re-analysis of the deposited data

How the results depend on the processing

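No paired analysis was possible because each genotype has 1 library and all share the same replicate number. Leaving out a replicate was not possible for the same reason. Median depth per cell differed more than 2-fold between libraries, dividing B-lineage-like cells of KO numbered only 120, and intervals cover counting error only.

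Of 333 values of members by class, 31 were lower and 45 higher in KO. With TMM factors 22 were lower and 61 higher, and with median-of-ratios factors 20 and 61. For all genes 20.1% of values were lower and 15.7% higher, 17.1% and 19.2% with TMM, and 16.8% and 19.6% with median-of-ratios factors. At a fold of 1.5, 2 of the members' values were lower and 2 higher. Other subunits had 45 values lower and 33 higher, with 52 higher under TMM, 51 under median-of-ratios, and 10 lower and 4 higher at 1.5-fold. The share of all genes at 1.5-fold was not counted, so the counts at that fold have no background. The median log2 ratio of KO over the 333 members' values was 0.01 to labelled WT and 0.03 to labelled Het. TMM gave 0.079 and 0.090, median-of-ratios 0.094 and 0.10, and gating on full counts -0.042 and -0.026. In non-dividing B-lineage-like cells the median against labelled Het changed from -0.11 to 0.012 with median-of-ratios factors, and the cause was not tested.

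The summed share of KO in granulocyte precursor-like cells was 1.13 times that of labelled Het. It was 1.16 with TMM, 1.16 with median-of-ratios, 1.09 with gating on full counts, 1.15 with 1 more marker, 1.07 with Leiden clusters and 1.10 with thinned counts. In dividing B-lineage-like cells the ratio was 0.887, with 0.914 when gated on full counts and 0.865 with thinned counts. Ndufs5 in KO was 4.02% of labelled Het, 5.01% with TMM and 4.92% with median-of-ratios. Leiden clusters gave no class for dividing monocyte-like or non-dividing granule-stage cells. Of 108 alternative values of the main results 85 stayed within their limits, and of 428 values by class 348 did.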
